A study of Cucurbita pepo with 23 samples.

Results

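The end of nectar secretion in male flowers was followed in 6 of the 23 libraries of this series, 3 from nectaries of fully open male flowers (0 hr) and 3 from nectaries of male flowers 9 hr later (+9 hr). All 8861 genes of the table entered the comparison, so no gene was chosen by its values. The plants were Crookneck Yellow Squash (*Cucurbita pepo*), an unmodified cultivar, and both groups came from the same growth conditions of 16 hr light and 8 hr dark. At 0 hr the flowers were open and secreting a few hours after dawn, and at +9 hr they had closed. The deposited design text places the last stage at +12 hr, and the hours used here are those of the methods of the study. Nectaries were dissected by hand, and nothing in the labels says that the 3 libraries of a group came from different plants. The p-values below therefore measure a spread between libraries. For limma that spread was estimated for each gene within groups over all 23 libraries, female ones included, and the standard errors rest on it too. The 2 groups also lie 9 hr apart on the clock, and the effects of stage and of hour cannot be told apart within this comparison.

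A floral nectary stores starch before the flower opens and breaks it down as secretion begins. The sugars released are rebuilt into sucrose in the nectary cells, and in Arabidopsis and its relatives the sucrose leaves the cells through the carrier SWEET9 and can be split outside them by a cell wall invertase. SWEET carriers move sugar down its gradient without spending energy. Proton pumps, by contrast, use energy to build gradients across the plasma and vacuole membranes, and respiration supplies it. After secretion, nectar can be taken up again, and in many flowers the tissue then ages and returns its nitrogen, lipids and minerals to the plant.

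Values are the authors' normalized reads, that is reads per gene scaled so that the upper quartile is alike in every library and rounded to whole numbers. Squash transcripts carry the name of the melon (*Cucumis melo*) gene they matched best, so that closely related squash genes can share an entry, and transcript variants of 1 melon gene are separate entries. Fold changes of named genes are given on the log2(value + 1) scale with their standard error and an adjusted p from limma, and ratios of group means are given as folds. The upper quartile lay between 1034 and 1097 in these 6 libraries, whereas the summed value was higher in every 0 hr library than in any +9 hr library. At least 95 genes were at 0 in a 0 hr library and between 6 and 17 in a +9 hr library. Libraries of a group correlated at 0.956 to 0.977 at 0 hr and at 0.911 to 0.96 at +9 hr (Pearson's r over genes on the log2 scale, genes not being independent). "Abundant" below refers to normalized reads, which are not corrected for transcript length.

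The 10 most abundant genes of the 0 hr libraries held 15.6, 16.5 and 18.9% of the summed value at 0 hr and 0.901, 1.85 and 1.87% at +9 hr. Since these genes were picked at 0 hr, that fall is given as a description. The 10 most abundant genes of each library's own held 16.5, 16.5 and 18.9% at 0 hr and 4.61, 5.18 and 4.80% at +9 hr, without overlap, and the exact two-sided permutation test of this measure, chosen after seeing the data, gave p = 0.10, the smallest value that 3 against 3 libraries allow. The 10 genes picked at 0 hr encoded beta-amylase 1, the SWEET9-type carrier, an ARG2-like protein, nitrate reductase, sucrose-phosphate synthase 2, a mitochondrial carrier, GDP-L-galactose phosphorylase, 2 galactinol-sucrose galactosyltransferases and a cytosolic glyceraldehyde-3-phosphate dehydrogenase.

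Of the 8861 genes, 2780 were called higher at +9 hr and 1559 lower (limma, adjusted p below 0.05 and at least 2-fold). That is 31.4% of all genes higher, 17.6% lower and 49.0% called in either direction, and every count below is to be read against these shares. The sizes of the falls of the most abundant genes depended on the scaling too, and after quantile normalization BAM1, SWEET9 and nitrate reductase, described below, fell by 2.22, fell by 2.85 and fell by 2.39 on the log2 scale, where they fell by 3.98, fell by 4.40 and fell by 3.77 with the deposited values. In 67.7% of genes the libraries of the stages did not overlap, the +9 hr libraries being all above in 40.4% and all below in 27.3%. Over all genes the median log2 fold change was 0.29, and it was 0.06 after median-of-ratios scaling, 0.84 with equal library sums and −0.12 after quantile normalization. With it moved the share of calls that were higher, which was 64.1% here and 55.7%, 81.3% and 48.9% under those scalings in the same order. List medians are therefore given beside the median of all genes. Each gene said to have risen or fallen below had 3 libraries of one stage above the 3 of the other unless an overlap is stated, and kept its call under median-of-ratios scaling. Because these are bulk samples, fewer cells of a type and less RNA per cell cannot be told apart.

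**Figure D1:**
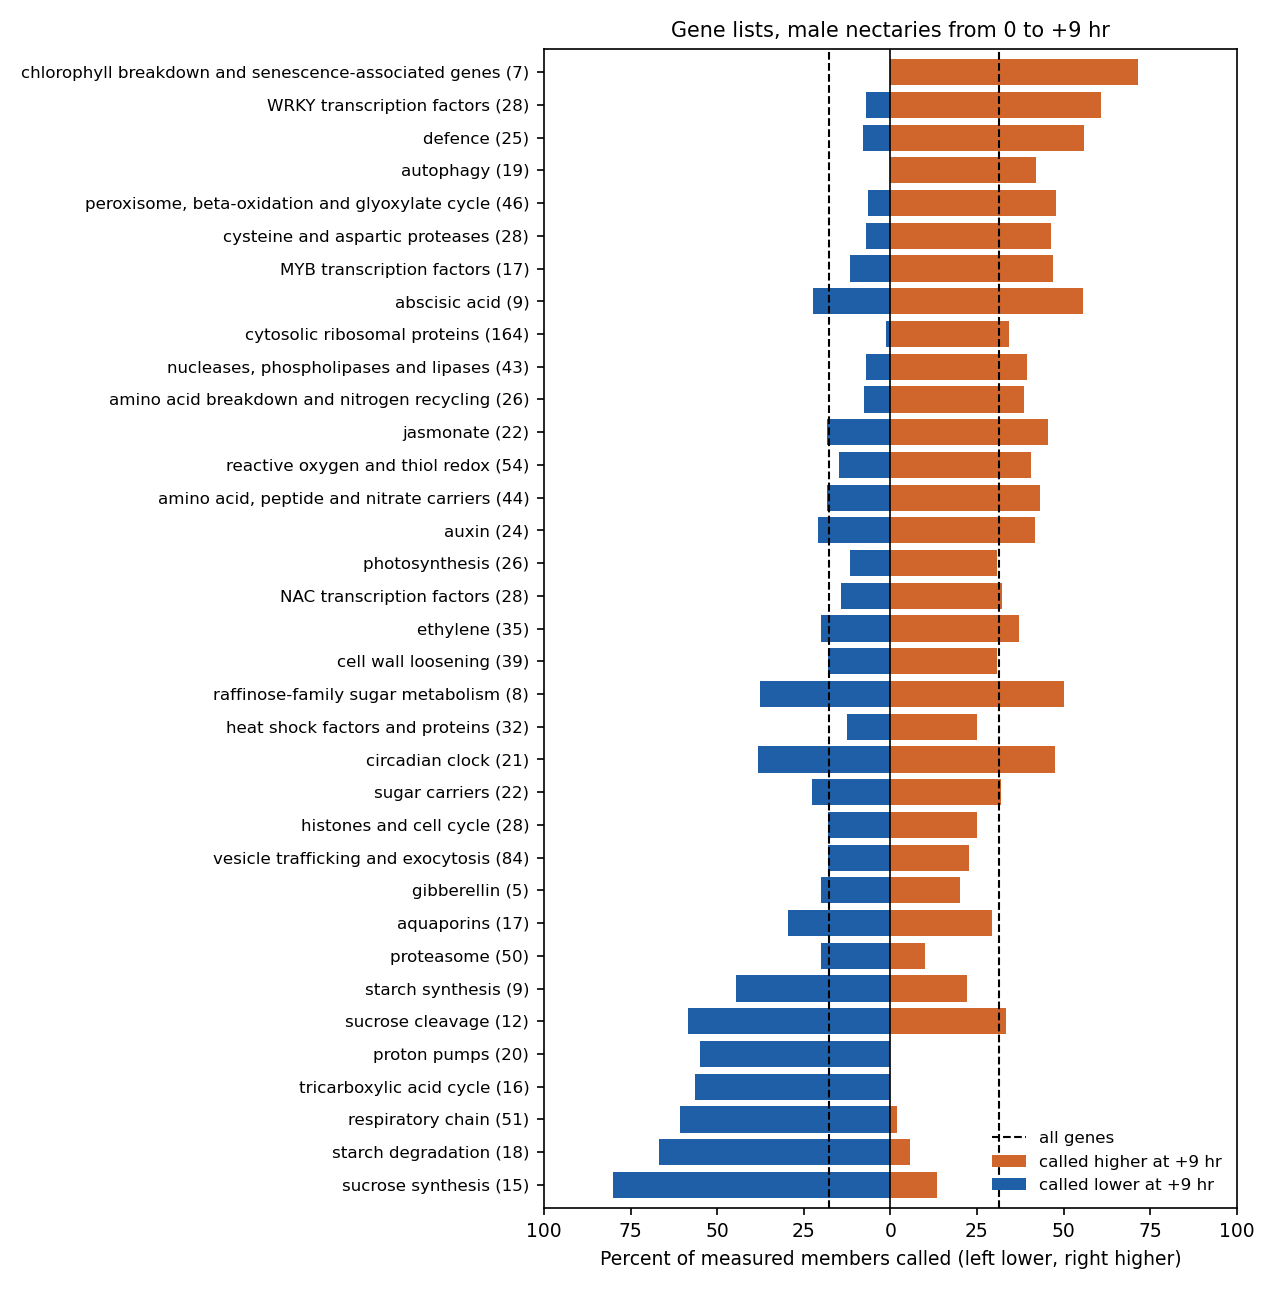
Percent of the measured members of each of 35 gene lists that were called lower (blue, to the left) or higher (orange, to the right) at +9 hr than at 0 hr in male nectaries, with the number of measured members in parentheses and dashed lines at the shares for all genes, 17.6% lower and 31.4% higher. Sucrose synthesis, starch degradation, the respiratory chain, sucrose cleavage, the tricarboxylic acid cycle and proton pumps each have 55% or more of their members lower.

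The genes that mark a secreting nectary in other plants fell steeply, SWEET9 and MYB305 from high levels at 0 hr and CWINV4 from a lower one. As the sequences that the study ties to 4 of the melon names, the primer pairs that the study lists for them are shown, forward then reverse, each 5′ to 3′.
SWEET9 forward: cattgcgctgccaaacat
SWEET9 reverse: cttcctcgagattcgcttctt
MYB305 forward: gaaacttggcagctacttgaac
MYB305 reverse: gggaggaccgataacgaaataa
CWINV4 forward: cttcccgagtatatccgactttg
CWINV4 reverse: ccaaaccttcaaacgggaaatc
BAM1 forward: ttcagaggagaccgagatgt
BAM1 reverse: ggttcttcccttccttcatctt
No letter is in capitals because no part of a primer carries the finding. Both primers of MYB305 and of CWINV4 were found on the 400 bases of squash transcript listed with them, and those of MYB305 enclose 161 bases. Neither primer of SWEET9 or of BAM1 was found on the 400 bases listed with it, so for these genes the pair does not place the transcript.

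The carrier that the study named SWEET9, after the sucrose exporter of nectaries, is described in melon as bidirectional sugar transporter NEC1-like (XM_008443590.1). The name SWEET9 therefore rests on the study. This carrier had 329298, 375013 and 539149 normalized reads at 0 hr and 9931, 38423 and 18516 at +9 hr. The lowest library at 0 hr was far above the highest at +9 hr, a fold of 18.6 between the means (log2 fold change −4.40 ± 0.93 SE, n = 3 each, adjusted p = 0.00043). MYB305, a transcription factor of floral nectaries in tobacco (XM_008445303.1), went from 114828, 128670 and 118650 to 854, 2638 and 2959, a 56.1-fold difference (−6.00 ± 0.68, adjusted p = 4.2e-07). The cell wall invertase that the study named CWINV4 (XM_008446238.1, described as CWINV3-like in the gene table) went from 866, 2494 and 4621 to 33, 120 and 72 (−5.01 ± 0.58, adjusted p = 6e-07). All 3 nectary markers were thus present in each library, with a summed level of 444992 to 662420 at 0 hr and 10818 to 41181 at +9 hr.

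Most genes of starch degradation fell, 12 of 18 members being lower and 1 higher, with a median log2 fold change of −1.59 beside 0.29 for all genes. The plastid enzyme beta-amylase 1 (BAM1, XM_008440214.1), which cuts maltose units off starch, was the most abundant of all genes at 0 hr. It had 465645, 412162 and 434746 normalized reads at 0 hr and 14906, 29860 and 47366 at +9 hr, a 14.2-fold difference (−3.98 ± 0.66, adjusted p = 3.8e-05). Of other entries annotated as beta-amylase 1, XM_008462489.1 was called lower (−2.02) and XM_008462190.1 was not called (0.93), both chosen after their values were seen. The debranching enzyme isoamylase 3 (XM_008467972.1) fell from between 30036 and 33025 to between 2473 and 3651 (−3.36 ± 0.49, adjusted p = 1e-05). The catalytically inactive beta-amylase 9 (XM_008460269.1) fell 10.1-fold (−3.37 ± 0.46). The steps that carry maltose onwards followed. The plastid maltose exporter MEX1 (XM_008464630.1) went from 6135, 11475 and 14511 to 1009, 1990 and 916 (−3.04 ± 0.32, adjusted p = 1.9e-07), and the cytosolic glucanotransferase DPE2 (XM_008457528.1) had a log2 fold change of −2.30 ± 0.41.

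Alpha-amylase 3 (AMY3, XM_008448092.1) and the cytosolic glucan phosphorylase (PHS2, XM_008465841.1) fell less, with log2 fold changes of −1.38 ± 0.44 and −1.78 ± 0.74 (adjusted p = 0.01 and 0.043). Quantile normalization left AMY3 at −0.14 and PHS2 at −0.85, and neither was called with it or with equal library sums. PHS2 also lost its call with a replicate block in the fit, and when any library but the second +9 hr library was left out. Of the kinases and other enzymes that open the starch granule, phosphoglucan water dikinase (PWD, XM_008455784.1) fell by 1.09 ± 0.34 with overlapping libraries, a call lost with equal library sums, after quantile normalization, and without the second or the third 0 hr library or the third +9 hr library, and glucan water dikinase (GWD, XM_008447957.1) was not called at −0.43 ± 0.56. The exception in the other direction was beta-amylase 3 (XM_008450537.1), at 28, 25 and 22 normalized reads at 0 hr and 442, 403 and 212 at +9 hr (3.70 ± 0.57, adjusted p = 1.7e-05).

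Starch synthesis had 4 of 9 measured members lower and 2 higher (median −0.77), and 2 each way with equal library sums. The branching enzyme SBE2 (XM_008466627.1) went from 3575, 5138 and 5894 to 575, 970 and 435 (−2.93 ± 0.52, adjusted p = 7.6e-05). Granule-bound starch synthase 1 (XM_008439233.1), which makes amylose, fell by 2.26 ± 0.70. The small subunit of ADP-glucose pyrophosphorylase (ApS1, AF030382.1), the committed step of starch synthesis, fell by 1.24 ± 0.42 (adjusted p = 0.015) and lost its call with equal library sums, after quantile normalization, and without the third 0 hr or the first +9 hr library. The soluble starch synthases went the other way, at 1.83 ± 0.31 for starch synthase 3 (XM_008442822.1) and 1.83 ± 0.36 for starch synthase 4 (XM_008441438.1). The latter was low throughout, at 27, 65 and 72 against 159, 196 and 193, and was not called after quantile normalization.

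In sucrose synthesis 12 of 15 members fell and 2 rose, with a median of −1.41, and apart from the 3 nectary markers no list had a larger share of falling genes. That rank depended on the scaling. With equal library sums 7 of the 15 fell, a smaller share than in sucrose cleavage (6 of 12) and the tricarboxylic acid cycle (8 of 16). Sucrose-phosphate synthase 2 (XM_008458932.1), which makes sucrose phosphate, went from 268431, 259129 and 182272 to 3789, 17842 and 17516, an 18.1-fold difference (−4.46 ± 0.81, adjusted p = 9.8e-05). A second sucrose-phosphate synthase (XM_008445712.1) fell 5.35-fold (−2.43 ± 0.31). Sucrose-phosphatase (XM_008444746.1), which frees the sucrose, had 54760, 54713 and 68826 normalized reads at 0 hr and 8624, 19067 and 11702 at +9 hr (−2.25 ± 0.57, adjusted p = 0.002), and was not called after quantile normalization. UDP-glucose pyrophosphorylase (DQ445483.1), which supplies the glucosyl donor, fell 8.88-fold. One of the 2 that rose was hexokinase-3 (XM_008451468.1), at 7, 1 and 5 against 519, 85 and 47, so its level at +9 hr varied with the library.

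In sucrose cleavage 7 of 12 members fell and 4 rose, and the cell wall invertases, the cytosolic invertases and the sucrose synthases each had members called in both directions. The vacuolar invertase INV2 (FJ231520.1) fell from between 47554 and 71004 to between 3639 and 5988 (−3.58 ± 0.38, adjusted p = 1.9e-07). A second cell wall invertase (insoluble isoenzyme 1-like, XM_008444640.1) went from 8246, 11730 and 16751 to 245, 1116 and 298 (−4.76 ± 0.54). The cytosolic invertase CINV2 (XM_008449769.1) fell 13.4-fold. A further CINV2 entry (XM_008440750.1) and a CWINV1-like cell wall invertase (XM_008464234.1) rose, with log2 fold changes of 1.69 and 2.76 (both chosen after their values were seen). Sucrose synthase 5 (SUS5, XM_008464945.1) fell from between 155568 and 179272 to 12548, 50115 and 30119 (−2.66 ± 0.66, adjusted p = 0.0017), which quantile normalization reduced to −0.97, not called. Sucrose synthase 2 (XM_008456098.1) rose instead, from 124, 126 and 147 to 4055, 5398 and 5243 (5.19 ± 0.78, adjusted p = 1.2e-05). Its +9 hr libraries were close together and 37.0-fold above those at 0 hr.

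**Figure D2:**
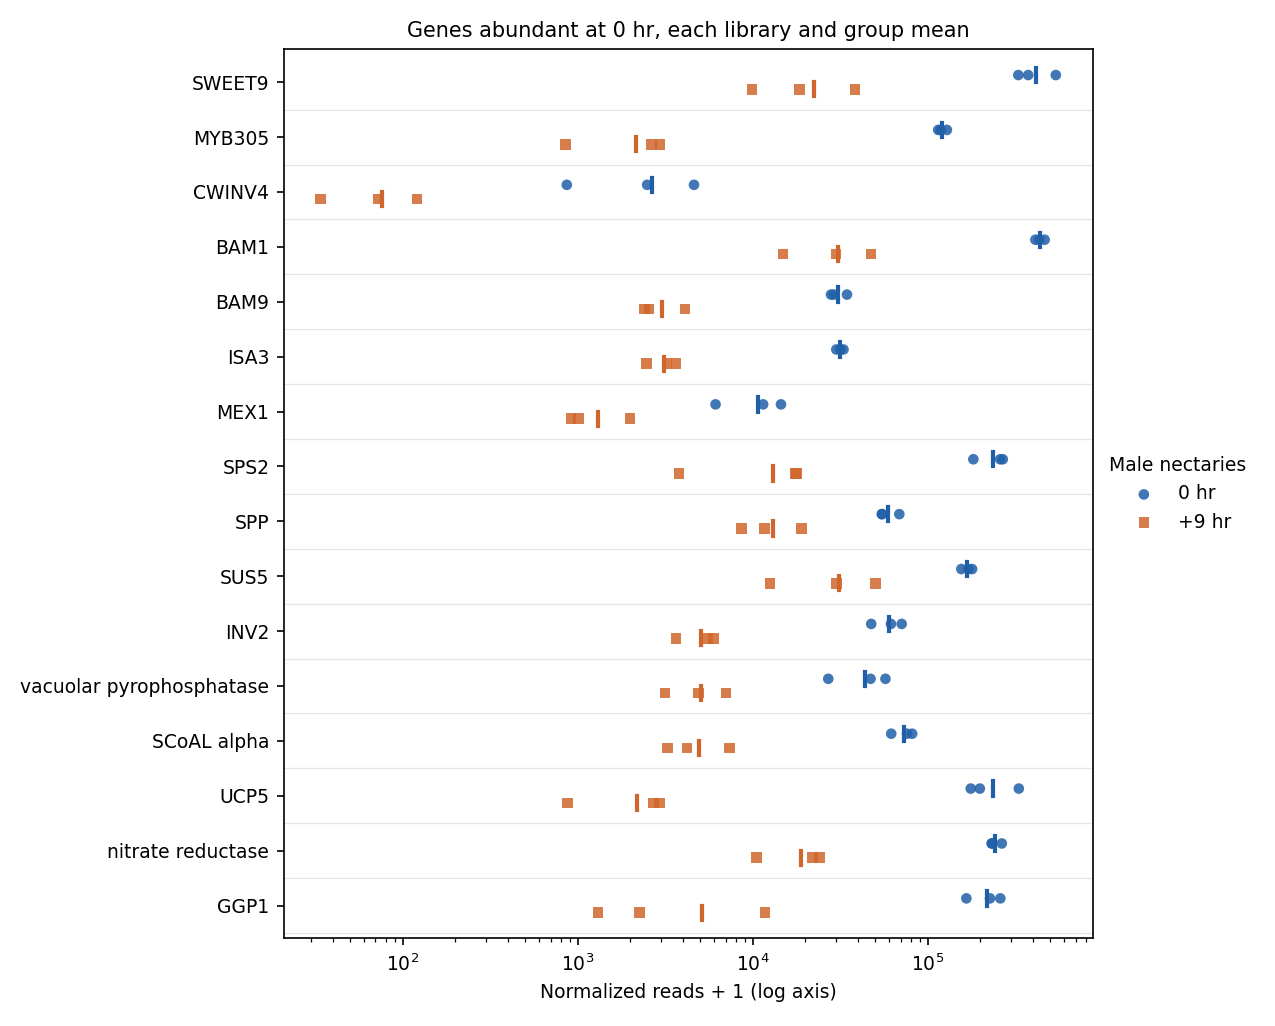
Normalized reads + 1 (log axis) of 16 genes, most of them abundant at 0 hr, in each male library at 0 hr (blue circles) and +9 hr (orange squares), with the group mean as a vertical bar. The 3 libraries of the 2 stages do not overlap in any of the 16 genes, and MYB305 and UCP5 differ the most, 56.1- and 108-fold between means.

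Sugar carriers did not move as a group, with 7 of 22 members higher and 5 lower (5 and 6 after median-of-ratios scaling). The carrier SWEET1 (XM_008443341.1), a glucose carrier in Arabidopsis, had 11, 10 and 10 normalized reads at 0 hr and reached 10092, 11088 and 19915 at +9 hr (10.17 ± 0.93, adjusted p = 3.5e-08). No library at 0 hr came near any at +9 hr. The hexose importer STP13 (XM_008451338.1), which takes up sugar from the cell wall space in Arabidopsis, went from 32, 40 and 84 to 1246, 2010 and 4081 (5.48 ± 0.94). The sugar carrier ERD6-like 16 (XM_008440551.1), whose relatives sit in the vacuole membrane, fell from between 15312 and 30196 to 310, 2068 and 402 (−5.05 ± 0.56). Another ERD6-like 16 entry (XM_008460285.1, chosen after its value was seen) was not called (2.63).

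Of 8 raffinose-family genes, 4 rose and 3 fell (2 each way after quantile normalization). The 3 that fell were annotated as galactinol-sucrose galactosyltransferases, the family that includes raffinose synthases, while another member of that family (XM_008466274.1, chosen after its value was seen) rose, with a log2 fold change of 1.73. The study describes 2 highly expressed genes, Raffinose Synthase 6 and Seed Imbibition 2, as putative alpha-galactosidases. By name and Arabidopsis match, galactosyltransferase 6 is probably the first of these, and galactosyltransferase 1 or 2 the second. Both would then be among the 3 that fell. The melon annotation and the study's reading thus differ on whether those 3 make or break down these sugars. Galactosyltransferase 1 (XM_008465452.1) went from 13451, 23464 and 36933 to 314, 450 and 612 (−5.68 ± 0.50, adjusted p = 2.3e-08). Galactosyltransferases 6 (XM_008445736.1) and 2 (XM_008462536.1), both among the 10 most abundant genes at 0 hr, fell too, with log2 fold changes of −3.47 ± 0.54 and −2.61 ± 0.64, the latter not called after quantile normalization. An alpha-galactosidase (XM_008447688.1), which removes galactose from these sugars, rose from 6, 4 and 14 to 522, 482 and 678 (6.11 ± 0.70), a further one rose, and the last (XM_008447689.1, chosen after its value was seen) was not called (0.93). Galactinol synthase 2 (XM_008460096.1) was at 3, 0 and 26 against 41, 102 and 159, and lost its call with 4 of the 6 libraries left out in turn and after quantile normalization.

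Of 20 proton pump genes 11 fell and none rose, with a median log2 fold change of −1.08. With equal library sums 5 fell, and after quantile normalization 10 fell and 1 rose. The vacuolar proton-pumping pyrophosphatase (XM_008445704.1) changed most, from 27029, 47128 and 57356 to 3150, 7049 and 4909 (−3.13 ± 0.37, adjusted p = 8e-07). The plasma membrane proton pump with the highest level, ATPase 11 (XM_008461072.1), was not called, at 22078, 35141 and 42952 against 34565, 47785 and 25409. Its estimate of 0.11 ± 0.45 was −0.12 after median-of-ratios scaling. The scarcer ATPase 8 (XM_008445664.1) fell from between 262 and 310 to between 31 and 128.

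Respiratory chain genes were lower in 31 of 51 cases and higher in 1 (median −1.13), and with equal library sums 11 were lower. In 44 of the 51 all +9 hr libraries were below all 0 hr libraries, against 27.3% of all genes. Cytochrome c oxidase subunit 6b (XM_008446635.1) went from 4521, 7207 and 12875 to 824, 1127 and 702 (−3.11 ± 0.34, adjusted p = 3.2e-07), and mitochondrial ATP synthase subunit O (XM_008463064.1) fell 4.57-fold (−2.19 ± 0.22). The alternative oxidase (ubiquinol oxidase, XM_008467260.1), which bypasses part of the chain, was the most abundant member and was not called, at 54386, 49427 and 38977 against 20766, 31398 and 27046 (−0.86 ± 0.62, adjusted p = 0.24). The 1 that rose was ubiquinol oxidase 4 (XM_008460764.1), the plastid enzyme, at 30, 37 and 26 against 227, 294 and 254.

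In the tricarboxylic acid cycle 9 of 16 genes fell and none rose. Both subunits of succinyl-CoA ligase led, the alpha subunit (XM_008469088.1) going from 61875, 76115 and 81476 to 4223, 7386 and 3248 (−3.96 ± 0.37, adjusted p = 4e-08) and the beta subunit (XM_008461725.1) falling by 3.00 ± 0.53. Citrate synthase (XM_008463012.1), which feeds acetyl-CoA into the cycle, fell 6.83-fold, and an NAD-dependent isocitrate dehydrogenase (XM_008451012.1) fell 5.91-fold. Among single genes of energy metabolism, a mitochondrial carrier annotated as uncoupling protein 5 (UCP5, XM_008468672.1) went from 176055, 198571 and 331422 to 874, 2928 and 2706, the second largest fall of all named genes (−6.89 ± 0.96, adjusted p = 5.4e-06). Cytosolic glyceraldehyde-3-phosphate dehydrogenase (XM_008441195.1) fell 10.4-fold and L-lactate dehydrogenase (XM_008438878.1) 43.6-fold.

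Aquaporins, the water channels, were divided, with 5 of 17 higher and 5 lower. The plasma membrane channel PIP1-4 (XM_008465000.1) was the most abundant, at 108753, 77677 and 46984 against 18326, 17165 and 17405 (−2.06 ± 0.59, adjusted p = 0.0049), and was not called after quantile normalization. The tonoplast channel TIP2-2 (XM_008438844.1) fell from 6959, 2840 and 1585 to 40, 146 and 135 and the plasma membrane channel PIP2-2 (XM_008451033.1) from between 6193 and 11081 to between 212 and 392. A NIP2-1-like channel (XM_008445190.1), of a family that carries small solutes, rose from between 895 and 1078 to 8540, 20582 and 14094 (3.74 ± 0.45, adjusted p = 1.1e-06). Vesicle trafficking and exocytosis had 19 of 84 higher and 15 lower, and 11 and 23 after median-of-ratios scaling, so the direction of that list depended on the scale. Within it, a Rab7 gene (XM_008449537.1), a GTPase of late endosomes and the vacuole, fell 11.1-fold (−3.53 ± 0.29), and the exocyst subunit EXO70B1 (XM_008444373.1) went from 3, 5 and 3 to 383, 43 and 313.

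Of 28 cysteine and aspartic proteases 13 rose and 2 fell, with a median of 0.96. An aleurain-like vacuolar thiol protease (XM_008452704.1) went from 1111, 1188 and 1624 to 60237, 52075 and 38011 (5.25 ± 0.38, adjusted p = 3.4e-09), and was among the 10 most abundant of the genes that rose. The most abundant of them was a cysteine proteinase annotated as low-temperature-induced (XM_008454367.1, matched to Arabidopsis RD21), from 6047, 5368 and 5379 to 77513, 91735 and 62495 (3.77 ± 0.29). An RD19a-like protease (XM_008462774.1) rose 5.27-fold. Aspartic proteinases went both ways. One (XM_008441801.1) rose from 229, 181 and 163 to 7302, 12933 and 3936, whereas PCS1 (XM_008458900.1), an Arabidopsis protease that limits cell death, fell from between 25427 and 37567 to between 1346 and 3347 (−4.04 ± 0.62, adjusted p = 1.7e-05).

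Autophagy genes, which build the vesicles that deliver cytoplasm to the vacuole, were higher in 8 of 19 cases and lower in none (median 0.38). ATG8f (XM_008459912.1) went from 761, 771 and 533 to 3474, 4466 and 4288 (2.58 ± 0.24, adjusted p = 3.9e-08) and ATG8c (XM_008457664.1) rose 5.43-fold. The most abundant ATG8 gene (XM_008442778.1) was not called, at 4730, 4540 and 4878 against 4896, 7157 and 6346. Chlorophyll breakdown and senescence-associated genes rose in 5 of 7 cases. The chlorophyll b reductase NOL (XM_008458407.1) went from 24, 19 and 16 to 354, 629 and 500 (4.56 ± 0.47), pheophytinase (XM_008463132.1), which removes the phytol tail, from 9962, 9161 and 6226 to 19399, 28859 and 17629 (1.37 ± 0.25, adjusted p = 0.00012), and pheophorbide a oxygenase (XM_008464245.1), which opens the ring, rose 2.96-fold.

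Peroxisomal genes rose in 22 of 46 cases and fell in 3, with a median of 0.86. Both enzymes peculiar to the glyoxylate cycle, the route by which acetyl-CoA from fatty acids yields sugars, were among them. Isocitrate lyase (XM_008457623.1) went from 36, 49 and 26 to 943, 3290 and 2626 (5.77 ± 0.64, adjusted p = 3.3e-07), and malate synthase (XM_008441283.1) from 280, 274 and 360 to 15887, 14649 and 7092 (5.28 ± 0.34, adjusted p = 1.2e-09). The enzymes of beta-oxidation were more abundant at the outset. Peroxisomal 3-ketoacyl-CoA thiolase 2 (XM_008459036.1) went from 6620, 11331 and 15713 to 47459, 49466 and 46421 (2.18 ± 0.33), and acyl-CoA oxidase 1 (XM_008438828.1) from between 2050 and 3348 to 9303, 29206 and 44370 (3.09 ± 0.63). Lipases, phospholipases and nucleases had 17 of 43 higher and 3 lower, led by a phosphoinositide phospholipase C (XM_008459148.1) at 9, 4 and 9 against 301, 114 and 93.

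Nitrogen genes changed in both directions. Nitrate reductase (XM_008462231.1), the first step of nitrate assimilation, went from 265021, 231930 and 232731 to 10489, 22010 and 24163 (−3.77 ± 0.67, adjusted p = 7.4e-05). The abundant NPF7.3-like carrier (XM_008467720.1), of the nitrate and peptide carrier family, fell from between 63309 and 70520 to between 1571 and 3971 (−4.60 ± 0.95). Against these, 10 of 26 genes of amino acid breakdown and nitrogen recycling rose and 2 fell, and 19 of 44 amino acid, peptide and nitrate carriers rose and 8 fell. A branched-chain aminotransferase (XM_008446285.1) went from 38, 16 and 18 to 1455, 3202 and 4379 (6.88 ± 0.52, adjusted p = 4.9e-09), an asparaginase (XM_008454382.1), which frees ammonium from asparagine, from between 163 and 246 to 5316, 2183 and 6947 (4.35 ± 0.84), and ammonium transporter 2 (XM_008444163.1) from between 55 and 85 to between 3047 and 4310 (5.75 ± 0.59). Cytosolic glutamine synthetase (DQ851867.1) was not called, and its +9 hr values of 36482, 8678 and 4010 spanned those at 0 hr (7599, 9458 and 10888). A primary amine oxidase (XM_008438927.1), which oxidizes amines such as putrescine and yields hydrogen peroxide, went from 95, 46 and 68 to 25214, 47753 and 48256 (9.16 ± 0.62, adjusted p = 1.8e-09).

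**Figure D3:**
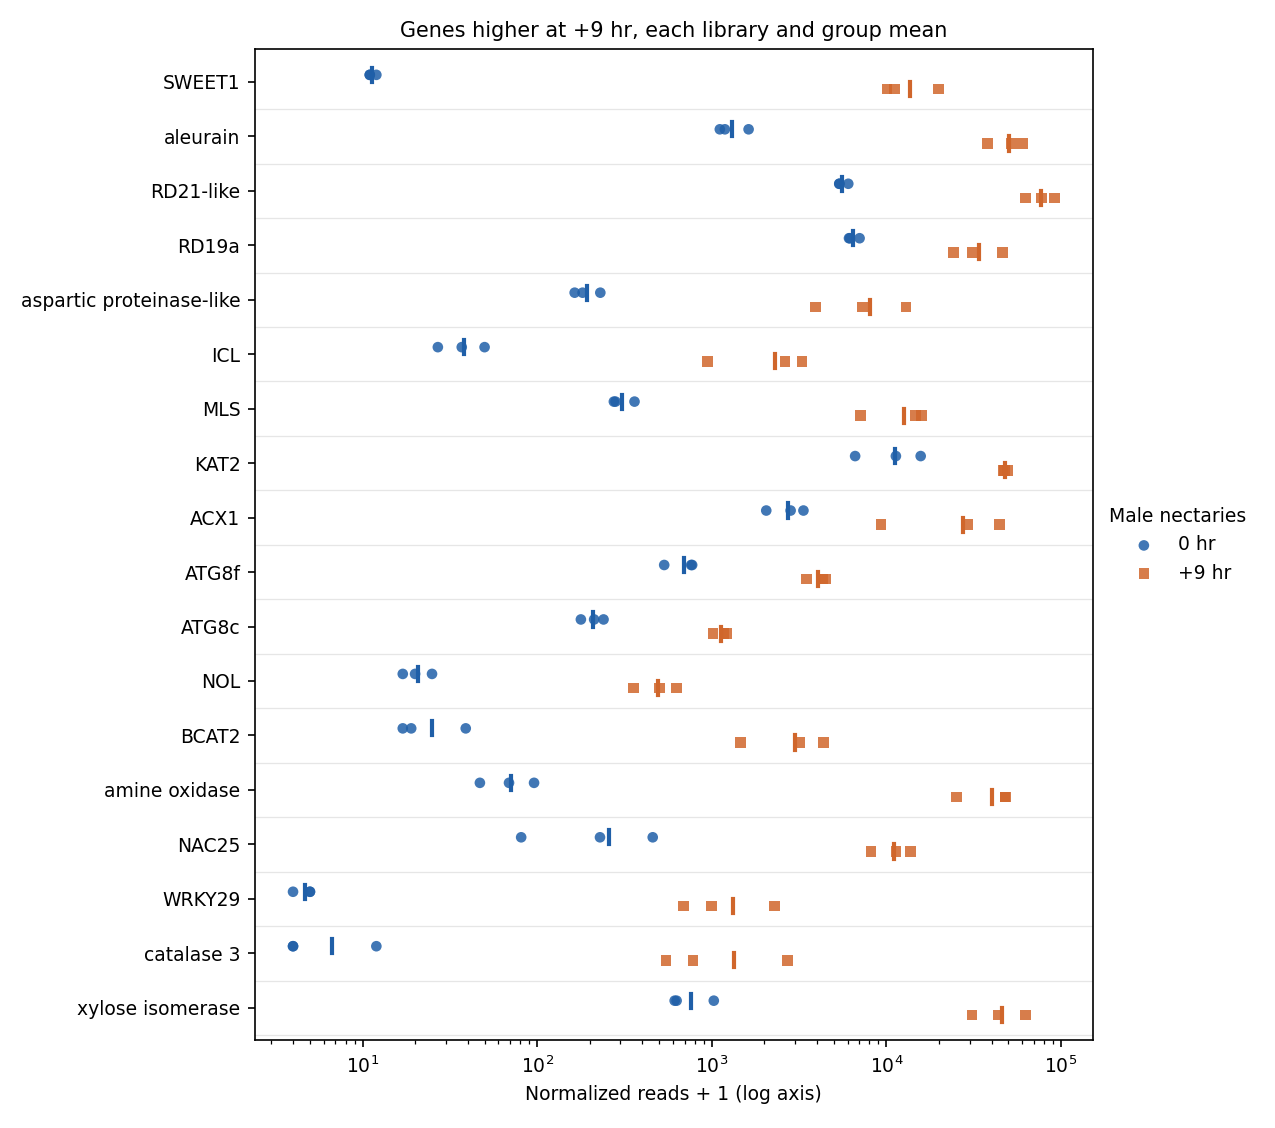
Normalized reads + 1 (log axis) of 18 genes called higher at +9 hr in each male library at 0 hr (blue circles) and +9 hr (orange squares), with the group mean as a vertical bar. SWEET1, the amine oxidase and WRKY29 lie at or below 95 normalized reads in every 0 hr library, and the proteases RD21-like and aleurain have the highest group means at +9 hr.

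Among transcription factors, WRKY genes, many of which act in defence and senescence, rose in 17 of 28 cases and fell in 2, with a median of 2.21, the highest of the 42 lists. WRKY29 (XM_008453784.1) went from 3, 4 and 4 to 2283, 689 and 998 (7.97 ± 0.96, adjusted p = 9.6e-07) and WRKY31 (XM_008441805.1) from between 78 and 121 to 2827, 1996 and 2213 (4.58 ± 0.38). NAC genes rose in 9 of 28 cases and fell in 4, shares near those of all genes. Among those that rose, NAC25-like (XM_008455810.1) went from 458, 228 and 80 to 8145, 13717 and 11357 (5.73 ± 0.59), and NAC100-like (XM_008454996.1) rose 25.1-fold. Of 17 MYB genes 8 rose and 2 fell. MYB108-like (XM_008463185.1), from a group that acts in stamen maturation in Arabidopsis, went from 19, 0 and 5 to 641, 823 and 479, and besides MYB305 MYB6-like (XM_008461443.1) fell 14.2-fold (−3.81 ± 0.38).

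Hormone lists were mixed. Of 35 ethylene genes 13 rose and 7 fell. An EIN3-like transcription factor (EIL2, AB063192.1), which carries the ethylene signal to its target genes, went from 334, 380 and 420 to 4826, 6107 and 5517 (3.85 ± 0.34, adjusted p = 2.6e-08), and the abundant ethylene-response factor RAP2-12 (XM_008464027.1) fell 2.52-fold, a call lost with equal library sums and quantile normalization. Jasmonate genes rose in 10 of 22 cases and fell in 4. A lipoxygenase of that route (XM_008451724.1) was at 1, 0 and 5 against 2181, 126 and 58, with the first +9 hr library far above the other 2. Of 9 abscisic acid genes 5 rose and 2 fell, and receptors moved apart, PYL9 (XM_008439692.1) rising 6.35-fold (2.66 ± 0.21) and PYL4-like (XM_008444150.1) falling 5.71-fold (−2.52 ± 0.28). Auxin genes rose in 10 of 24 cases and fell in 5. Auxin response factor 6 (XM_008441364.1), needed for flower maturation and nectary growth in Arabidopsis, went from 364, 341 and 314 to 4709, 8833 and 6905 (4.28 ± 0.28), and the ARG2-like gene (XM_008453336.1) from 341767, 322060 and 443283 to 3064, 15636 and 18463 (−5.25 ± 0.71). Of 5 gibberellin genes, the growth repressor GAIP-B (XM_008468906.1) fell 3.01-fold and the receptor GID1B (XM_008453192.1) rose 2.47-fold.

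Defence genes rose in 14 of 25 cases and fell in 2. A thaumatin-like protein (XM_008446595.1) went from 82, 37 and 20 to 4503, 5400 and 4486 (6.88 ± 0.73, adjusted p = 2e-07) and a beta-1,3-glucanase (XM_008463195.1) rose 24.3-fold, whereas a pathogenesis-related protein 5-like gene (XM_008446460.1) fell from between 2304 and 3393 to 17, 35 and 187. Genes of reactive oxygen and thiol redox rose in 22 of 54 cases and fell in 8. Catalase 1 (XM_008454734.1), which destroys hydrogen peroxide, rose from 14885, 10945 and 6452 to 31373, 37417 and 41344 (1.84 ± 0.28), and catalase 3 (XM_008466617.1) from 11, 3 and 3 to 546, 2708 and 778 (7.51 ± 0.84). GDP-L-galactose phosphorylase (XM_008449496.1), a controlling step of ascorbate synthesis, went from 259875, 226905 and 166240 to 1309, 2258 and 11781, a 42.5-fold difference (−6.03 ± 0.74, adjusted p = 1.2e-06). Wall-loosening genes rose in 12 of 39 cases and fell in 7 (8 and 11 after quantile normalization), led by a xyloglucan endotransglucosylase (XTH31, XM_008467178.1) at 11, 8 and 1 against 2158, 989 and 210 and by beta-galactosidase 9 (XM_008440119.1), which rose 51.5-fold.

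Cytosolic ribosomal protein genes rose in 56 of 164 cases and fell in 2. The median of 0.72 compares with 0.29 for all genes. With equal library sums 104 rose and 1 fell, and after quantile normalization 29 rose and 10 fell, so how their rising share compares with that of all genes depended on the scaling. An ubiquitin fusion of ribosomal protein L40 (XM_008453907.1) went from 970, 822 and 977 to 5309, 6441 and 8228 (2.83 ± 0.30). An Arabidopsis match of this L40 entry is also that of ATHB-7, described below, so that these entries may share reads. The most abundant member, L10-like (XM_008453563.1), was not called (−0.78 ± 0.46, adjusted p = 0.15). Proteasome genes rose in 5 of 50 cases and fell in 10 (7 and 2 with equal library sums), and in 32 of the 50 all +9 hr libraries were below all 0 hr libraries. The regulatory subunit 7 (XM_008462969.1) fell from between 9476 and 10684 to between 2942 and 3687 (−1.66 ± 0.23). Histone and cell cycle genes rose in 7 of 28 cases and fell in 5 (6 and 6 after median-of-ratios scaling). Histone H2AX (XM_008452494.1) fell from between 203 and 316 to 15, 15 and 41, and a histone H1-like gene (XM_008457952.1) was at 2161, 2799 and 2009 against 3814, 7432 and 9818 (1.51 ± 0.49, adjusted p = 0.012). It lost its call without the third +9 hr library.

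The genes with the largest rises overall came from several families. A basic 7S globulin-like gene (XM_008440496.1) went from 7, 3 and 0 to 4007, 3704 and 3409 (10.19 ± 0.90, adjusted p = 2.3e-08), with +9 hr libraries close together. A remorin-like gene (XM_008441003.1), encoding a plasma membrane scaffold protein, went from 3, 7 and 1 to 5602, 2884 and 1957, and a vesicle transport protein that matched the same Arabidopsis genes (XM_008440999.1) from 4, 5 and 5 to 4467, 2397 and 1891, so that these 2 entries may share reads. The drought- and abscisic acid-responsive ATHB-7 (XM_008439624.1) reached 2090, 2781 and 3676 from 6, 9 and 8. The kinase CIPK25 (XM_008466931.1), an auxin-repressed protein (XM_008441609.1) and an UNUSUAL FLORAL ORGANS-like gene (XM_008456037.1) rose by 8.98 ± 0.88, 9.09 ± 1.06 and 8.14 ± 0.47. The thioredoxin-like CXXS1 (XM_008456334.1) was listed at 0 in all 3 libraries at 0 hr and at 887, 1896 and 815 at +9 hr.

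Among the more abundant genes that rose were xylose isomerase (XM_008453878.1), from 1026, 628 and 612 to 30972, 62733 and 43922, and aldehyde dehydrogenase 7B4 (XM_008464070.1), from between 1217 and 2097 to between 32900 and 36036. A type 2 metallothionein (XM_008444332.1), which binds metals, rose 4.26-fold. The largest fall of all named genes was that of a PXMP2/4 family protein (XM_008456160.1), from 26915, 31540 and 27379 to 48, 84 and 697, with the third +9 hr library above the other 2 (−7.64 ± 1.01, adjusted p = 3e-06). A TIC32-like dehydrogenase (XM_008444344.1) and a phytochrome A-associated F-box protein (XM_008456124.1) had log2 fold changes of −5.89 ± 0.87 and −5.64 ± 0.51. Photosynthesis genes rose in 8 of 26 cases and fell in 3. The photoprotective photosystem II 22 kDa protein (XM_008468488.1) fell from 20432, 15963 and 11500 to 54, 307 and 633, a ferredoxin (XM_008457831.1) from 46562, 31454 and 10245 to 166, 445 and 1163, and chlorophyll a-b binding protein 8 (XM_008452076.1) rose from 490, 90 and 24 to 2707, 4896 and 3500.

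The male nectaries at −24 and −15 hr were collected at the same clock hours as those at 0 and +9 hr and share no library with them. From −24 to −15 hr 139 genes were called higher (1.57%) and 328 lower (3.70%), 5.27% of all genes against 49.0% from 0 to +9 hr. Of the 2780 genes higher at +9 hr 45 were also higher in the earlier step, which is 1.62% of these genes and 32.4% of the genes higher in the earlier step. For lower genes the number was 104, or 6.67% and 31.7%. In opposite directions, 102 of the 2780 had been lower in the earlier step (3.67%, and 31.1% of the genes lower then), and 55 of the 1559 had been higher (3.53% and 39.6%). The test of the difference between the 2 steps called 2738 genes (30.9%) with a more positive and 1444 (16.3%) with a more negative change from 0 to +9 hr, 47.2% of all genes. Of the genes called in the later step, 85.8% of the higher and 75.2% of the lower ones also differed in this test in their own direction.

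Clock genes follow the time of day in plants, and several changed in both steps. From 0 to +9 hr 10 of its 21 members rose and 8 fell (9 each way after median-of-ratios scaling), and from −24 to −15 hr 3 rose and 3 fell. The difference between the steps was called for 11 of the 21, 6 more positive and 5 more negative from 0 to +9 hr. LHY (XM_008461600.1), a morning gene of the clock, went from 20838, 17112 and 12254 at −24 hr to 669, 598 and 437 at −15 hr, and from 95707, 54166 and 22774 at 0 hr to 1892, 4036 and 9799 at +9 hr. The changes were −4.87 and −3.54, and their difference of 1.33 did not pass the test (adjusted p = 0.38). Its 0 hr libraries were 4.2-fold apart. PCL1 (XM_008459232.1), an evening gene, was at 0, 5 and 7 against 166, 147 and 115 (5.29 ± 0.91), with 14, 46 and 88 against 493, 490 and 563 the day before. In contrast, the MYB-like clock gene REVEILLE 2 (XM_008441373.1) went in the later step from between 12409 and 14131 to 233, 367 and 792, with 324 to 532 at −24 hr and 402 to 1137 at −15 hr (difference −5.50, adjusted p = 1.6e-05). The entry annotated as LUX in melon (XM_008448337.1) likewise rose by 4.69 ± 0.62 and differed from the earlier step by 4.48. Its Arabidopsis match is a different locus from that of PCL1, so its name rests on the melon annotation alone. Outside the clock list, the aquaporin PIP1-4 had fallen by more from −24 to −15 hr (difference 2.88, adjusted p = 0.007), from 4714, 2826 and 629 to 116, 36 and 66. Galactosyltransferase 1 had risen, from between 1393 and 3261 to between 33725 and 72368, before its fall on the day of opening. Granule-bound starch synthase 1, the aquaporin PIP2-2 and STP13 had been called in the same direction in the earlier step, at −2.39, −4.28 and 3.19. For these genes the limma test of the difference between the steps gave adjusted p = 0.93, 0.49 and 0.15.

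**Figure D4:**
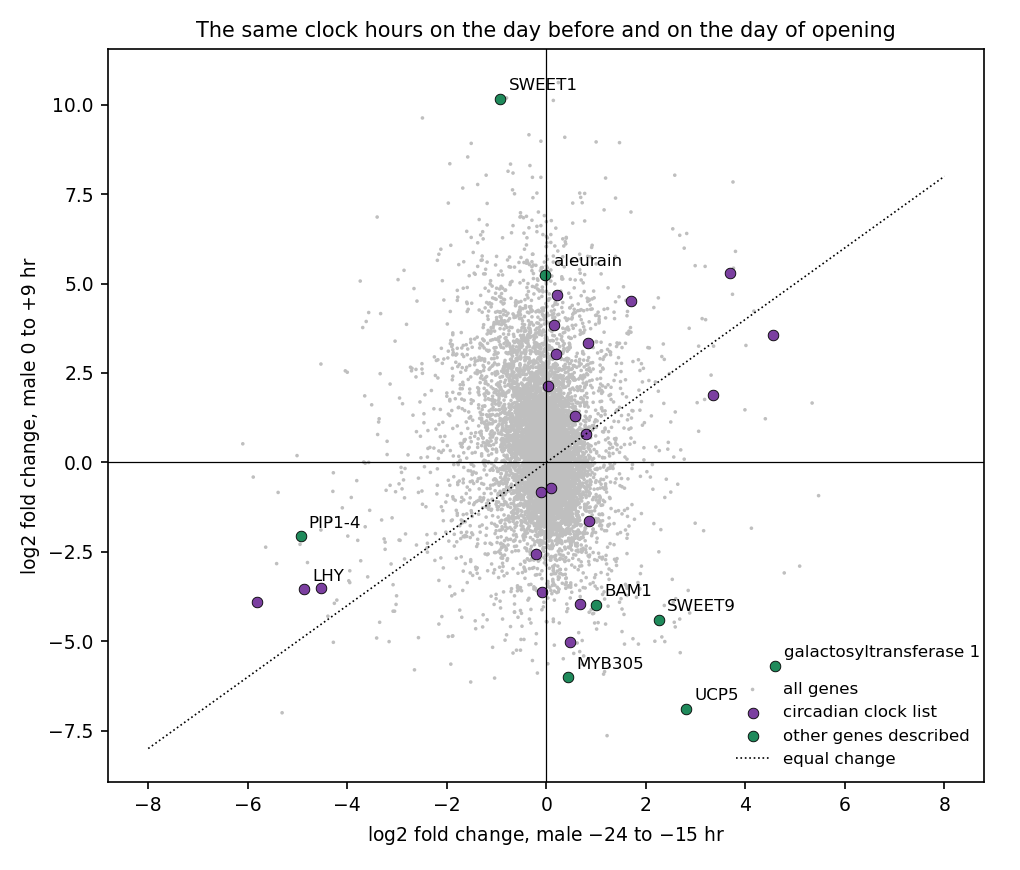
Log2 fold change of each of 8861 genes in male nectaries from −24 to −15 hr (horizontal axis) and from 0 to +9 hr (vertical axis), with the 21 circadian clock genes in purple and 8 further genes named in the text in green; the dotted line marks equal change. Most genes lie along the vertical axis, while LHY (−4.87 and −3.54) lies near the dotted line.

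Female nectaries over the same hours had 32.0% of genes higher and 17.3% lower. The test of the difference between the sexes called 408 genes (4.60%) with a more positive and 228 (2.57%) with a more negative change in males, 7.18% of all genes. These counts depended on single libraries. They fell to 202 and 95 without the second male 0 hr library, to 272 and 112 without the third, to 194 and 94 without the second male +9 hr library and to 275 and 148 without the third. Among female libraries, left out as a check added after seeing the data, they fell to 196 and 105 without the second at 0 hr, 200 and 98 without the third, 234 and 126 without the second at +9 hr and 246 and 114 without the third, and rose to 880 and 765 without the first female +9 hr library. The genes described next kept their call with any 1 of the 12 libraries left out unless stated. Among the sugar genes named the largest difference was that of SUS2 (5.83, adjusted p = 0.0047), which in females was at 133, 486 and 1436 at 0 hr and 1263, 73 and 267 at +9 hr. Dehydrin DHN1 (XM_008453887.1), a protein of dehydrating tissue, went from 66, 162 and 220 to 5184, 6754 and 7845 in males and from 276, 2476 and 3250 to 3235, 25 and 173 in females (difference 8.02, adjusted p = 0.008). The nitrile-specifier protein 5-like gene (XM_008465935.1) rose to between 795 and 1627 in males and stayed at 8 to 36 in all 6 female libraries (difference 6.84, adjusted p = 0.001). The heat stress transcription factor A-6b (XM_008440394.1) went from 23, 40 and 13 to 821, 1396 and 1513 in males, and from 125, 355 and 417 to 770, 201 and 367 in females (difference 5.11, adjusted p = 0.015). Of 32 heat shock genes 8 rose and 4 fell in males, with a median of −0.11, and 3 rose and 11 fell in females.

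The amine oxidase rose in both sexes and by more in males, with 6349, 3416 and 5441 normalized reads in females at +9 hr (difference 5.76, adjusted p = 0.002). Pectinesterase 2 (XM_008439971.1), an enzyme of the cell wall, was at 14 or less in the 6 male libraries at 0 and +9 hr and reached 1001, 11512 and 17507 in females at +9 hr (difference −9.33, adjusted p = 0.0046). A cytochrome b5 reductase-like gene (XM_008451650.1) fell in males from 66, 69 and 42 to 2, 1 and 0 and was at 98, 208 and 248 in females at +9 hr. The alternative oxidase, not called in males, went in females from between 59458 and 64285 to 14287, 885 and 2707 (difference 3.39, adjusted p = 0.027), a call kept in 4 of the 12 fits that left out 1 library. SWEET9 was at 22863, 368 and 951 in females at +9 hr against 9931, 38423 and 18516 in males, and the difference in its change, 2.86, did not pass the test (adjusted p = 0.19) until the first female +9 hr library was left out, which gave 4.61 (adjusted p = 0.00039). MYB305 changed by −6.00 in males and −6.09 in females.

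**Figure D5:**
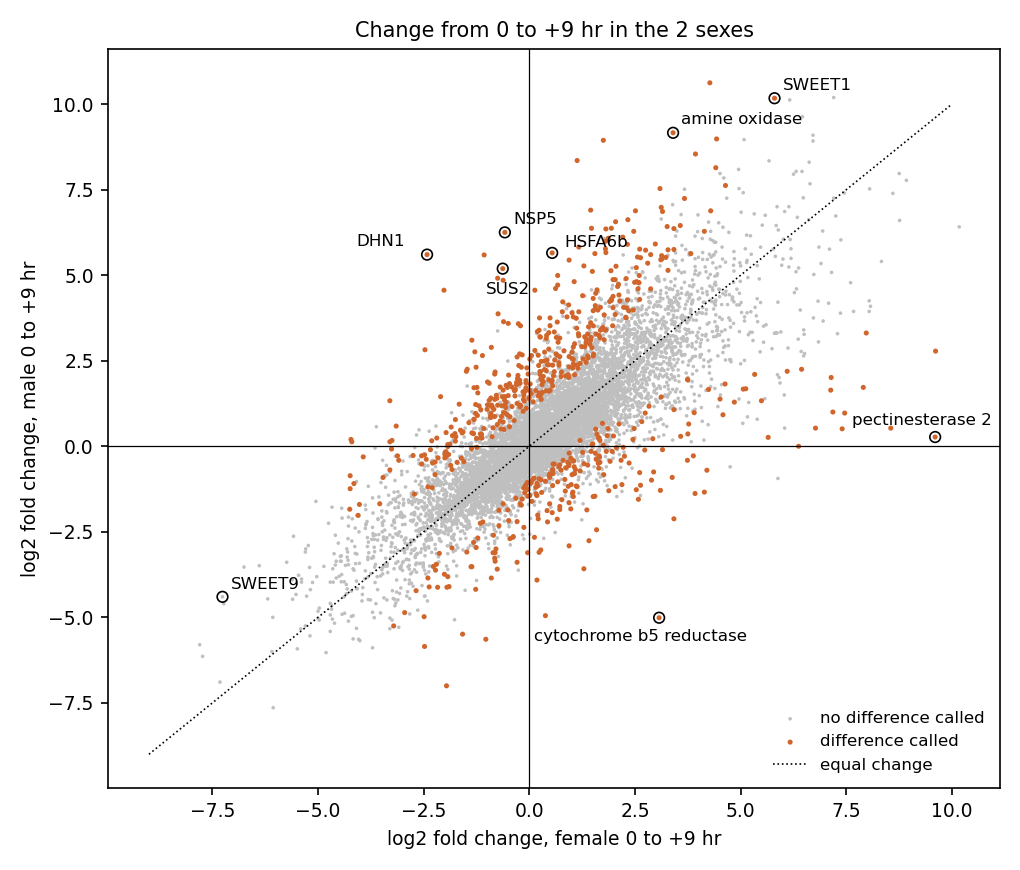
Log2 fold change from 0 to +9 hr of each of 8861 genes in female nectaries (horizontal axis) and male nectaries (vertical axis), with the 636 genes whose changes differed by the limma test in orange and the dotted line marking equal change. DHN1, NSP5, SUS2 and HSFA6b lie high above the line, and pectinesterase 2 and the cytochrome b5 reductase far below it.

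Markers of other tissues that a dissected nectary could carry were low beside the nectary markers. The summed level of 3 pollen and anther genes was 2554 to 4144 at 0 hr and 1529 to 1753 at +9 hr, with 1 of them lower (SF21, XM_008452609.1, −1.16 ± 0.19, not called with equal library sums). That of 8 phloem genes was 1655 to 2214 and 3442 to 4780, of 5 xylem genes 769 to 1239 and 805 to 1670, and of 2 cuticle genes 73 to 135 and 346 to 1224. For 3 entries named after AGAMOUS, a gene that marks stamens and carpels, it was 1059 to 1715 and 686 to 1022. The name AGAMOUS rests on the melon annotation alone. None of these marker genes, of any tissue, was at 0 in any of the 6 libraries. In the phloem list the F-box protein PP2-A13 (XM_008439871.1) rose 12.5-fold, and 2 of 8 members were higher and 3 lower. In the cuticle list CER1 (XM_008467935.1), a wax synthesis gene, was at 27, 15 and 14 against 1185, 297 and 399. Of 15 entries whose best Arabidopsis match lay in an organelle genome 4 rose and 5 fell, and their summed level was 28304 to 81418 at 0 hr and 8198 to 38230 at +9 hr, a weak sign of RNA quality because several are annotated as nuclear genes in melon. The part of other tissues in the changes described above was not tested.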

How the data were processed

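RNA from hand-dissected nectaries was sequenced by the study (TruSeq, 50 bp paired ends, all libraries pooled over the same lanes). Trinity contigs were built by the authors, who matched them to melon genes by blastn (E-value 1e-05), scaled the reads per gene to the upper quartile and deposited them as whole numbers. These deposited values are treated as a score, not as raw counts, since rounding and scaling remove the sequencing depth, which is therefore unknown here, and no counting interval was computed. Zero values are printed as listed. Columns with the authors' means, ratios and p-values were not used, and 0 other per-sample columns were left aside.

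Values were analysed as log2(value + 1) with limma 3.58.1 in R 4.3.3 (mean-variance trend, moderated variances, 1 mean per sex and stage over all 23 libraries, two-sided, Benjamini-Hochberg over 8861 genes). All genes passed the filter of at least 10 in at least 2 libraries. Genes were called at an adjusted p below 0.05 and a change of at least 2-fold. The differences between sexes and between steps were contrasts in the same fit, called at a difference of at least 1 on the log2 scale. No test was run on a list, and lists are described by counts and medians. The fit was tested on simulated data in which 200 genes were changed. It found 33 of 67 changes of 2-fold (49.3%), all 67 of 4-fold and all 66 of 8-fold, with 7 false calls. Far more genes were called in the real comparison, so the simulation does not cover a shift of that extent.

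Named genes were the 15 largest rises and falls without overlap and with a group mean of at least 100, the 10 most abundant called genes each way, of each list up to 4 called and 2 abundant members, genes the study names, and the 5 largest differences each way in each contrast; not all are printed. The 42 lists and this rule were chosen with earlier results of these data known. Alternatives were 3 scalings, a pseudocount of 10, no filter, a mean of at least 100, 12 or 6 libraries alone, no trend, each of the 6 male 0 and +9 hr libraries left out and a replicate block. After seeing the data, each female 0 and +9 hr library was left out of the sex contrast, each male library at −24 and −15 hr out of the contrast of steps, and each library's own 10 most abundant genes were used. Genome coordinates and melon sequences were not used here.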

Additional observations from a re-analysis of the deposited data

Results flagged for a closer look

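The change from 0 to +9 hr differed between male and female nectaries, by the limma test of the difference, for 33 named genes, 3 of which (XM_008454845.1, XM_008450453.1 and XM_008450297.1) are named only here. All values are male minus female log2 fold changes. The most positive were DHN1 at 8.02, the isoflavone 2'-hydroxylase-like XM_008454845.1 at 7.21, the nitrile-specifier protein 5-like gene at 6.84, SUS2 at 5.83, the amine oxidase at 5.76 and heat stress factor A-6b at 5.11. CIPK25 followed at 4.55, a small heat shock protein (XM_008450453.1) at 4.46, SWEET1 at 4.38, the thaumatin-like protein at 4.37, the alpha-galactosidase at 3.90, the UNUSUAL FLORAL ORGANS-like gene at 3.74, chlorophyll a-b binding protein 8 at 3.62 and the alternative oxidase at 3.39.

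Smaller positive differences were found for aldehyde dehydrogenase 7B4 (3.14), NAC25-like (2.98), xylose isomerase (2.93), the NIP2-1-like channel (2.63), the branched-chain aminotransferase (2.58), aspartic proteinase-like protein 1 (XM_008450297.1, 2.29), pheophytinase (2.20), catalase 1 (2.06), ARF6 (1.96), EIL2 (1.83), pheophorbide a oxygenase (1.75), thiolase 2 (1.59), the RD21-like protease (1.49) and ATG8f (1.18). Negative differences were found for pectinesterase 2 (−9.33), the cytochrome b5 reductase-like gene (−8.08), the pathogenesis-related protein 5-like gene (−3.37), MYB6-like (−1.88) and the pollen-specific SF21 (−1.36). Of the 33 differences, 17 were called in each of the 12 fits that left out 1 library of either sex at 0 or +9 hr. SWEET1, thiolase 2, MYB6-like, the small heat shock protein, the pathogenesis-related protein 5-like gene and chlorophyll a-b binding protein 8 were called in 2 or 3 of these fits. The alternative oxidase was at 14287, 885 and 2707 in the female +9 hr libraries, and the part of that spread in its difference was not tested.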

How the results depend on the processing

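The counts of 2780 higher and 1559 lower genes became 2424 and 1930 after median-of-ratios scaling, 3891 and 896 with equal library sums, and 1871 and 1952 after quantile normalization. They were 2595 to 2820 and 1482 to 1537 when 1 library was left out. For the difference between the sexes, leaving out 1 library of either sex at 0 or +9 hr gave 194 to 880 more positive and 94 to 765 more negative genes, and for the difference from the earlier step, leaving out 1 of the 12 male libraries, 2508 to 2706 and 1327 to 1428. That last difference gave 712 more negative genes with equal library sums and 1722 more positive genes after quantile normalization. The change in the share of the 10 most abundant genes, −15.5 percentage points, was −16.2 to −14.5 with 1 library left out, and −12.4 with each library's own 10 most abundant genes. With a replicate block the male counts were 2769 and 1552 and the sex counts 302 and 154. Deviations of same-numbered libraries correlated at −0.15, −0.01 and −0.16, and those of different-numbered libraries at −0.02 to 0.17. These values gave no sign that the replicate numbers pair the libraries. They cannot exclude it, since deviations from the mean of 3 libraries are tied to one another.

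Of 150 named genes 127 kept sign and call under every setting run. Among those not called, glucan water dikinase was 0.12 with equal library sums and 0.55 after quantile normalization, ATPase 11 was −0.12 after median-of-ratios scaling and −0.16 to 0.34 with 1 library left out (negative without the first 0 hr or the second +9 hr library), and the alternative oxidase was 0.18 after quantile normalization. Glutamine synthetase was −0.64 to 0.95 with 1 library left out (negative without the first +9 hr library). AGAMOUS (XM_008441479.1), −0.54 as reported, was 0.01 with equal library sums. Pectinesterase 2 was −1.88 after quantile normalization, −0.07 with a pseudocount of 10, and −0.72 to 1.24 with 1 library left out (negative without the first 0 hr or the first +9 hr library). The cause was not tested. The normalized values carry no depth, so the limit of detection of the low genes is unknown.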
